A study of Mus musculus with 123 samples.

Results

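The genes of the mitochondrial respiratory chain and ATP synthase were examined in lungs of mice that had been sensitized to ovalbumin (OVA), an egg protein, and of naive mice. Members were taken by name: every gene whose symbol in the platform annotation starts with Nduf, Uqcr, Sdh followed by 1 letter, Cox followed by 4, 5, 6, 7 or 8, or Atp5. This gave 66 of the 13053 genes tested, with the probe set of the highest mean standing for each gene. They comprise 27 subunits of complex I (5 core and 22 supernumerary), 7 factors that assemble complex I, 4 subunits of complex II, 3 of complex III, 8 common subunits of complex IV, 6 tissue isoforms linked to complex IV and 11 subunits of the ATP synthase.

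RNA of whole lung from BALB/c mice was measured on expression arrays, with 1 array per mouse. The sensitized mice numbered 62, with 8 at each of 0, 2, 6, 48, 72, 96 and 168 h and 6 at 24 h. The naive mice numbered 61, with 8 at 0, 6, 24, 72 and 168 h and 7 at 2, 48 and 96 h. The times count from a challenge with OVA, which the design text gives for both arms, although PBS stands in the title of each naive sample. The naive treatment is thus not settled, and neither is whether 0 h lies before the challenge. The labels give no ages. Whole lung mixes many cell types, and fewer cells of a type cannot be told apart from less RNA per cell.

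The respiratory chain sits in the inner mitochondrial membrane. Complexes I and II pass electrons from NADH and succinate to ubiquinone, complex III passes them on to cytochrome c, and complex IV passes them to oxygen. Complexes I, III and IV pump protons, and the ATP synthase, or complex V, uses the resulting gradient to make ATP. Most subunits are encoded in the nucleus, among them all members described here. In the lung, mitochondria-rich cells include ciliated cells and alveolar type II cells, and immune cells change their use of the chain when they are activated.

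Nuclear genes of the chain are known targets of the transcription factors NRF1 and GABPA, also called NRF2, a member of the ETS family. Their promoters were searched on both strands for an NRF1 motif (GCGCA, any base, then GCGC), an ETS motif (CCGGAAG), a YY1 motif (AAGATGGC), an ERR alpha motif (TCAAGGTCA) and the core of the hypoxia response element (ACGTG). The window was the 250 bases before the start of the gene in RefSeq on the GRCm38.p6 build, which was found for 52 of the 66 members. The NRF1 motif stood in 7 of these 52 (13.5%), against 3.86% of all 27025 promoters. The ETS motif stood in 7 (13.5%), against 7.05% of all promoters. The hypoxia core stood in 11 (21.2%), against 16.6%, the ERR alpha motif in 1 (1.92%), against 0.366%, and the YY1 motif in 0, against 1.59%. Among the 27 with a promoter whose gene was higher in sensitized mice at 24 h, 3 held the NRF1 and 4 the ETS motif. Among the 24 with a promoter whose gene was not called at that time, 4 held the NRF1 and 3 the ETS motif. A match of letters is a description and no proof of binding.

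The 4 promoters below were picked after the values were seen, from genes that were higher at 24 h and hold an NRF1 or an ETS motif, which the capitals mark. Other genes with such motifs are not shown, among them Ndufb7, also higher at 24 h, and Sdha and Cox6a1, which were not called at 24 h. That of Sdhd lies at chr9:50603850-50604099 on the minus strand, with the NRF1 motif beginning 79 bases and the ETS motif 46 bases before the start. The motifs do not overlap. That of Atp5g2 lies at chr15:102671048-102671297 (minus), with the NRF1 motif 42 bases before the start. The promoters of Atp5e at chr2:174464102-174464351 (minus) and of Ndufb6 at chr4:40279422-40279671 (minus) hold an ETS motif 102 and 232 bases before the start. All are written along the strand of the gene, and CTTCCGG is the ETS motif read from the other strand.
Sdhd: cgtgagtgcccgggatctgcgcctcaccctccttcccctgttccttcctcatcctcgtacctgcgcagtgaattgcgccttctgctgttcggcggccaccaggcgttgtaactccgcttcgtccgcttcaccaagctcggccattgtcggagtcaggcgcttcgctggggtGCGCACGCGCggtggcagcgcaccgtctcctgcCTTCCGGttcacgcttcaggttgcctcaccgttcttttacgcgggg
Atp5g2: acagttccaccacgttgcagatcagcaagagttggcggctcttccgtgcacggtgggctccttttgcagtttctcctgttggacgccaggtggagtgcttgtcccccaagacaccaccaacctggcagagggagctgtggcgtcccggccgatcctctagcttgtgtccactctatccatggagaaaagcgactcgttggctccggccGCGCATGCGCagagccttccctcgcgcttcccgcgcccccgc
Atp5e: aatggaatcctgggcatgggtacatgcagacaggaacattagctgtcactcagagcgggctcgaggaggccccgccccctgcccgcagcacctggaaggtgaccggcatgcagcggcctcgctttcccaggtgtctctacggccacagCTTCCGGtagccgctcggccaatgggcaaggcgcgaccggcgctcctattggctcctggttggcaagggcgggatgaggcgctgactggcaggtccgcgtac
Ndufb6: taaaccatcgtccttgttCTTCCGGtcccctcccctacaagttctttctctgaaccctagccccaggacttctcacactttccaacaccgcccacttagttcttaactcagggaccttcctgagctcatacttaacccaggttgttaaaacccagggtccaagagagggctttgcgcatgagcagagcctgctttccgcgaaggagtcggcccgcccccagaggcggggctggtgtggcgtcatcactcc

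Array medians lay between 9.32 and 9.44 on the log2 scale. The lung label was borne out by the markers of alveolar type II cells, whose mean over 7 genes lay between 13.63 and 13.73 in sensitized mice and between 13.65 and 13.78 in naive mice at 24 h. On 8 arrays, 2 of sensitized and 6 of naive mice, markers of squamous epithelium or skeletal muscle stood more than 2 log2 units above their median over all arrays. The signal of the 3′ actin probe set minus that of the 5′ one, a measure of RNA integrity, differed between sensitized and naive mice by -0.18 at 6 h and by -0.13 at 24 h (adjusted p = 0.0224 each, exact permutation test) and by 0.29 at 168 h (adjusted p = 0.0319, exact permutation test).

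Genes of the chain were mostly higher in sensitized lungs at 24 h, by small amounts. In limma, 35 of 66 members were higher and 3 were lower at that time. The 35 are 53.0% of the members, against 22.8% of all genes tested, and the 3 are 4.55%, against 24.9%. The members were brighter than most genes, with a median of their mean signals of 12.27 against 10.1, and 56 of 66 lay above the median gene. Shares among genes of like signal were not computed. The median difference of the members was 0.108 on the log2 scale, against -0.022 for all genes. Members called higher differed by 0.05 to 0.84, with a median of 0.17, which is a 1.13-fold change of signal. Leaving the 6 tissue isoforms aside, 34 of 60 members were higher and none was lower. With the actin measure as a covariate 33 members were higher at 24 h, and without the arrays with neighbouring tissue 33. Marker genes of other cells moved at this time too: 8 of 8 goblet cell, 6 of 7 T cell and 3 of 4 eosinophil markers were higher, and 5 of 6 alveolar type I, 6 of 9 endothelial and 5 of 6 adipocyte markers were lower. The eosinophil marker that was lower was Siglecf (-0.52 ± 0.16), which alveolar macrophages share. Of the alveolar type I markers 1 was higher, as was 1 of the endothelial markers. Of 10 ciliated cell markers 0 were called, and of 7 alveolar type II markers 2 were higher and 2 lower. The goblet cell mean lay between 10.80 and 11.85 in sensitized and between 6.78 and 7.48 in naive mice, the T cell mean between 9.85 and 10.23 against 9.0 and 9.88, and the eosinophil mean between 7.33 and 8.86 against 6.37 and 6.78. The alveolar type I mean lay between 13.02 and 13.18 in sensitized and between 13.22 and 13.37 in naive mice, the endothelial mean between 12.18 and 12.44 against 12.35 and 12.60, and the adipocyte mean between 6.74 and 8.36 against 7.60 and 9.88. Their part in the member differences was not tested.

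At the other times the counts were nearer to those of all genes. At 0 h 8 members (12.1%) were higher, against 14.2% of all genes, and 3 (4.55%) were lower, against 12.3%. The 8 became 5 without naive replicate 5 or sensitized replicate 8 and 4 without sensitized replicate 1 or 6. At 2 h limma called 0 of 66 in either direction, against 1.84% of all genes higher and 1.92% lower. At that time 1 member had an unadjusted p under 0.05, and 1 was called lower with array weights and 1 with the mean of all probe sets of a gene. At 6 h 17 (25.8%) were higher, against 24.6%, and 9 (13.6%) were lower, against 33.2%. The 17 became 11 with the actin measure as a covariate and 28 with array weights, and the 9 became 5 without the arrays with neighbouring tissue. At 48 h 14 (21.2%) were higher, against 17% of all genes, and 2 (3.03%) were lower, against 18.1%. The 14 became 22 with array weights and 9 with only the groups of that time in the fit, and the 2 became 1 without naive replicate 1, naive replicate 3 or sensitized replicate 3. At 72 h 15 (22.7%) were higher, against 22.2%, and 6 (9.09%) lower, against 26.3%. At 96 h 22 (33.3%) were higher, against 21.2%, and 3 (4.55%) lower, against 20.8%. At 168 h 0 were higher, against 3.4%, and 1 (1.52%) was lower, against 1.41%, with 5 members at an unadjusted p under 0.05 and 1 called higher with array weights. Of all members 41 were higher at 1 or more times, 13 were lower at 1 or more, 4 of these in both directions at different times, and 16 were called at no time. The shares of all genes called at 1 or more times were not computed, so these counts do not set the members apart from other genes. For the mean of the 8 differences 31 members (47.0%) were higher, against 33.3% of all genes, and 8 (12.1%) were lower, against 39.2%. The bar chart of shares called shows the members beside all genes at each time.

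**Figure D1:**
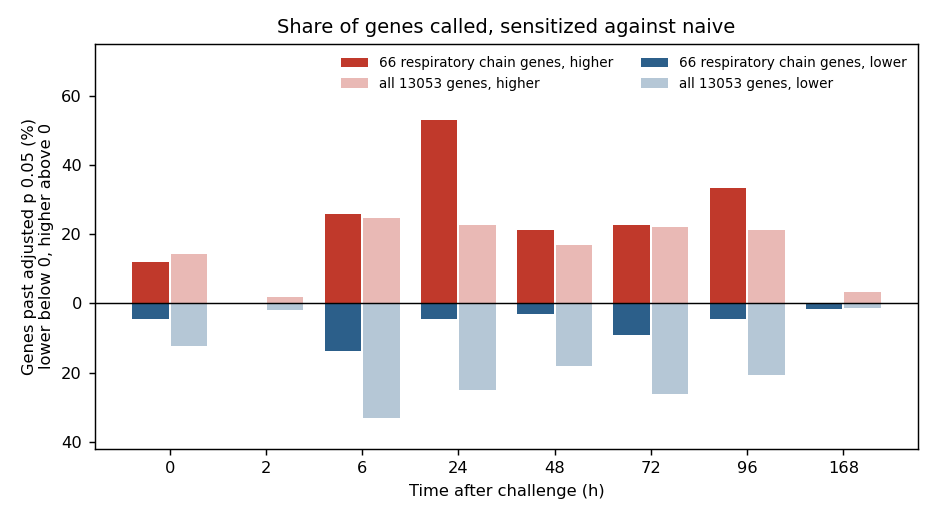
Share of genes past an adjusted p of 0.05 (limma) at each time in hours, in percent, for the 66 respiratory chain genes (dark bars) and all 13053 genes (pale bars). Bars above 0 are genes higher in sensitized mice and bars below 0 genes lower in them. The tallest dark bar is the 53.0% higher at 24 h, beside 22.8% of all genes.

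The heat map gives every member's difference at every time. It shows the 24 h column as mostly red in every complex, the 2 h and 168 h columns as pale, and the rows of the tissue isoforms as the bluest block.

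**Figure D2:**
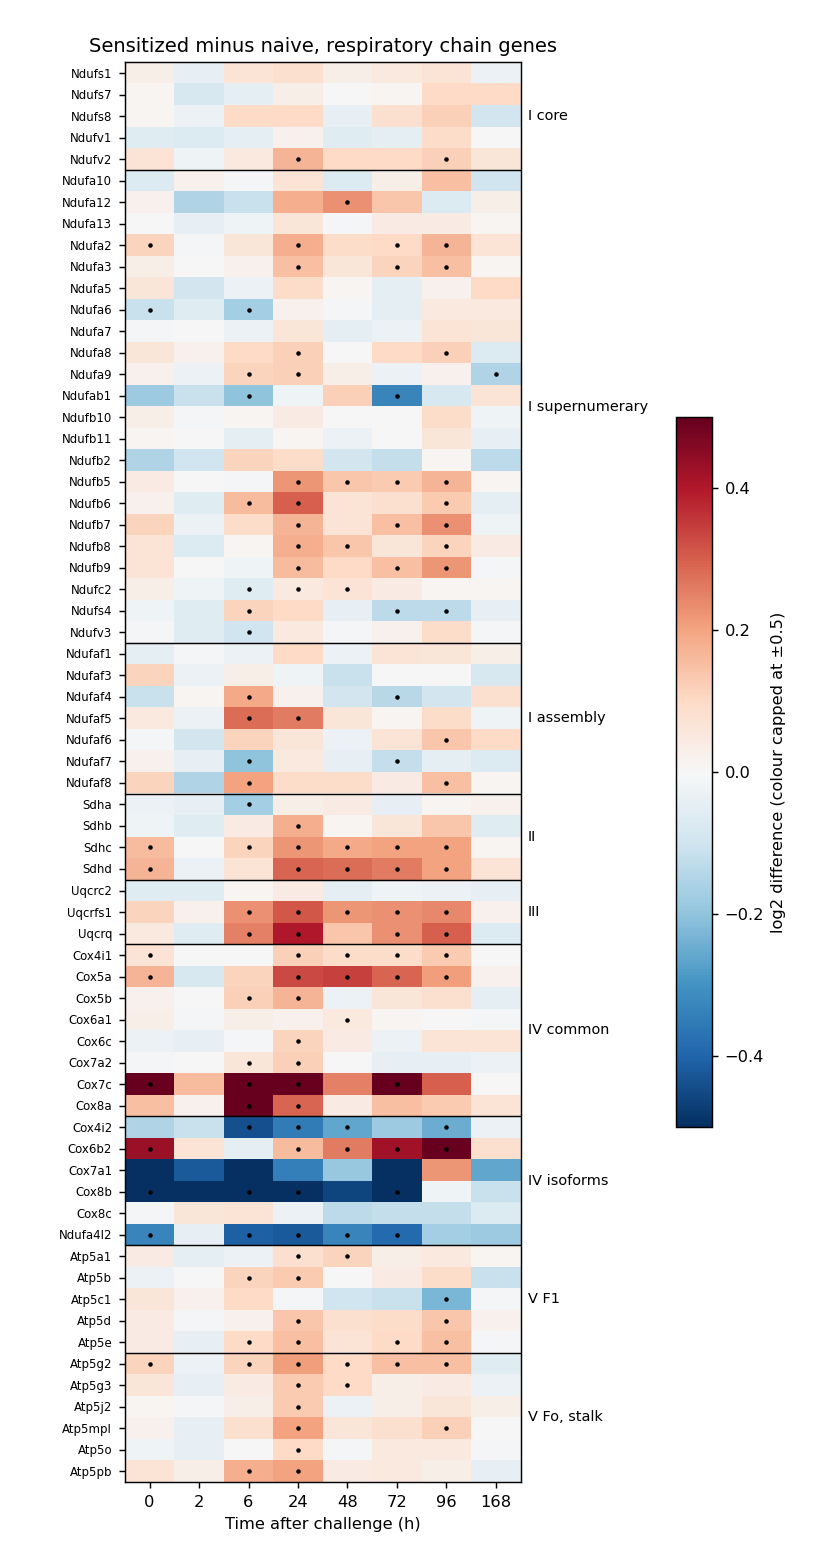
Sensitized minus naive log2 difference of each of the 66 members (rows, by complex) at 8 times in hours after the challenge (columns). Red is higher and blue lower in sensitized mice, the colour is capped at an absolute difference of 0.5, and a dot marks an adjusted p under 0.05 (limma). The 24 h column holds 38 dots, and the 2 h column none.

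In complex I, 11 of 27 subunits were higher at 24 h and none was lower, with a median difference of 0.09. They included 5 of the 8 subunits named Ndufb, which belong to the membrane arm, where protons are pumped. Ndufb6, one of these, stood at 11.63, 11.69 and 11.74 (lowest, median, highest of 6) in sensitized mice and at 11.31, 11.37 and 11.54 (of 8) in naive mice. All 6 sensitized mice lay above every naive mouse, with a difference of 0.30 ± 0.05 (SE, 1.23-fold, adjusted p = 1.25e-06, limma). Ndufb5, another membrane arm subunit, stood at 12.72, 12.76 and 12.84 in sensitized mice and at 12.47, 12.55 and 12.62 in naive mice. These groups did not overlap, and the difference was 0.22 ± 0.04 (adjusted p = 5.15e-06, limma). Of the 5 core subunits, which carry out electron transfer, 1 was called, Ndufv2 of the NADH-binding module. Ndufv2 stood at 12.47, 12.57 and 12.64 in sensitized and at 12.23, 12.39 and 12.51 in naive mice, with 4 of 6 sensitized values above all naive ones (0.17 ± 0.05, adjusted p = 0.00275, limma). Ndufa13, a subunit that is also known as the cell death factor GRIM-19, had a range of differences of 0.11 over the 8 times. It stood at 13.50, 13.55 and 13.65 in sensitized and at 13.38, 13.51 and 13.57 in naive mice at 24 h, so the groups overlapped (0.06 ± 0.03, adjusted p = 0.0896, limma).

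Some complex I members were lower at other times. Ndufab1, the mitochondrial acyl carrier protein, stood at 7.32, 7.52 and 7.79 in sensitized and at 7.7, 7.89 and 8 in naive mice at 72 h (-0.33 ± 0.08, adjusted p = 0.000281, limma). Of the 8 sensitized mice, 7 lay below every naive one. The Ndufab1 probe set was dim, with a mean signal of 7.75 over all arrays. Ndufs4, an accessory subunit near the NADH-binding module, stood at 11.09, 11.28 and 11.48 in sensitized and at 11.34, 11.42 and 11.50 in naive mice at 96 h (-0.13 ± 0.05, adjusted p = 0.0197, limma). Ndufs4 at 96 h lost that call without naive replicate 3 (adjusted p = 0.0513), without sensitized replicate 5 (0.0833) and with only the groups of 96 h in the fit (0.0563). Its other probe sets differed by 0.08, -0.12 and -0.45 at this time. Ndufb7, of the membrane arm, stood at 11.98, 12.24 and 12.30 in sensitized and at 11.84, 11.95 and 12.12 in naive mice at 96 h. It was higher in sensitized mice by 0.23 ± 0.05, with 6 of 8 above every naive mouse (adjusted p = 0.000139, limma). The member called at 168 h was Ndufa9, a subunit near the ubiquinone site, at 12.46, 12.61 and 12.69 in sensitized and at 12.59, 12.71 and 12.91 in naive mice (-0.15 ± 0.04, adjusted p = 0.0104, limma). With the actin measure as a covariate Ndufa9 at 168 h differed by -0.039 (adjusted p = 0.652), and the actin measure itself differed between the arms at that time.

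Of the 7 assembly factors of complex I, 3 were higher and 1 was lower at 6 h, the time at which 24.6% of all genes were higher and 33.2% lower. Ndufaf5, known in human cells to hydroxylate an arginine of a core subunit, stood at 9.46, 9.86 and 10.04 in sensitized and at 9.42, 9.47 and 9.74 in naive mice. Of the 8 sensitized mice 5 lay above every naive mouse, while the others lay within the naive range (0.28 ± 0.06, adjusted p = 2.61e-05, limma). Ndufaf7, a methyltransferase, went the other way, at 10.08, 10.18 and 10.39 in sensitized and at 10.35, 10.41 and 10.52 in naive mice. Of the 8 sensitized mice 6 lay below every naive mouse (-0.20 ± 0.04, adjusted p = 3.32e-06, limma). The other factors higher at 6 h were Ndufaf8, by 0.20 ± 0.05, and Ndufaf4, by 0.19 ± 0.05. Ndufaf4 was lower at 72 h (-0.14), but its other probe set differed by 0.19 at that time and by 0.52 at 6 h. At 24 h Ndufaf5 was the 1 factor called, higher by 0.26 ± 0.06.

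In complex II, also the succinate dehydrogenase of the tricarboxylic acid (TCA) cycle, 3 of 4 subunits were higher at 24 h. Sdhd and Sdhc anchor the enzyme in the membrane and hold the site of ubiquinone. Sdhd stood at 12.50, 12.60 and 12.69 in sensitized and at 12.19, 12.32 and 12.38 in naive mice, with all 6 sensitized mice above every naive one (0.29 ± 0.04, 1.22-fold, adjusted p = 2.76e-08, limma). Sdhc stood at 11.82, 11.94 and 12.06 in sensitized and at 11.53, 11.74 and 11.84 in naive mice, with 5 of 6 above (0.22 ± 0.04, adjusted p = 3.25e-05, limma). Sdhb, the iron-sulfur subunit, stood at 12.09, 12.16 and 12.26 in sensitized and at 11.85, 12 and 12.11 in naive mice (0.18 ± 0.07, adjusted p = 0.0166, limma), and 4 of 6 sensitized mice lay above every naive mouse.

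The anchors differed at most times. Sdhd was higher at 0, 24, 48, 72 and 96 h and Sdhc also at 6 h. At 96 h Sdhd stood at 12.56, 12.68 and 12.78 in sensitized and at 12.41, 12.49 and 12.53 in naive mice. The groups did not overlap (0.20 ± 0.04, adjusted p = 4.81e-05, limma). The other probe set of Sdhd differed by 0.04 at 96 h, and by 0.10, 0.18 and 0.12 at 0, 48 and 72 h. At 2 h Sdhd differed by -0.03 ± 0.04, and at 168 h by 0.07 ± 0.04, neither called. Sdha, the catalytic flavoprotein, differed in direction at 6 h, at 12.68, 12.73 and 12.97 in sensitized and at 12.87, 12.91 and 13.05 in naive mice. Of the 8 sensitized mice 7 lay below every naive mouse (-0.17 ± 0.03, adjusted p = 3.75e-07, limma). The other probe sets of Sdha did not share this: with the mean of its probe sets the difference was 0.002 (adjusted p = 0.976).

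In complex III, 2 of 3 subunits were higher at 24 h. Uqcrq, a small subunit also known as the ubiquinone-binding protein, stood at 11.81, 11.96 and 12.03 in sensitized and at 11.42, 11.55 and 11.63 in naive mice. These groups did not overlap, and the difference was 0.40 ± 0.07 (1.32-fold, adjusted p = 1.45e-06, limma). At 6 h it stood at 11.50, 11.74 and 11.94 in sensitized and at 11.28, 11.48 and 11.97 in naive mice, and no sensitized mouse lay above all naive mice. The highest naive value at 6 h came from replicate 1, an array with markers of neighbouring tissue (0.25 ± 0.06, adjusted p = 0.000714, limma). At 96 h it stood at 11.58, 11.72 and 11.92 in sensitized and at 11.32, 11.44 and 11.58 in naive mice, with all 8 sensitized mice above every naive one before rounding (0.30 ± 0.07, adjusted p = 0.000169, limma). Uqcrfs1, the Rieske iron-sulfur protein, was higher at 5 times and stood at 11.60, 11.77 and 11.97 in sensitized and at 11.34, 11.47 and 11.94 in naive mice at 6 h (0.23 ± 0.06, adjusted p = 0.000964, limma). Of the 8 sensitized mice 1 lay above every naive mouse then, and at 24 h the difference was 0.31 ± 0.07, with all 6 above. Uqcrc2, a core protein without a redox centre, had a range of differences of 0.10 over the 8 times. Its values at 24 h were 12.45, 12.53 and 12.57 in sensitized and 12.40, 12.47 and 12.54 in naive mice (0.04 ± 0.04, adjusted p = 0.511, limma).

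In complex IV, cytochrome c oxidase, 7 of 8 common subunits were higher at 24 h. Cox5a, a nuclear subunit known to bind a thyroid hormone metabolite, stood at 12.89, 13.09 and 13.20 in sensitized and at 12.59, 12.77 and 12.92 in naive mice. Of the 6 sensitized mice 5 lay above every naive mouse (0.33 ± 0.06, 1.26-fold, adjusted p = 3.75e-06, limma). Cox5b, which binds zinc, stood at 13.36, 13.40 and 13.53 in sensitized and at 13.09, 13.28 and 13.35 in naive mice, with no overlap (0.17 ± 0.05, adjusted p = 0.000821, limma). Cox4i1, the common form of the regulatory subunit IV, stood at 13.29, 13.31 and 13.36 in sensitized and at 13.06, 13.22 and 13.26 in naive mice. Its groups did not overlap either, although the difference was 0.12 ± 0.03 (1.09-fold, adjusted p = 0.000252, limma). Cox7a2, the common form of subunit VIIa, stood at 13.42, 13.43 and 13.46 in sensitized and at 13.26, 13.30 and 13.39 in naive mice (0.12 ± 0.03, adjusted p = 0.000144, limma). The common subunit not called was Cox6a1, the liver-type form of subunit VIa, with the smallest range of differences of any member, 0.06. Cox6a1 stood at 13.70, 13.73 and 13.76 in sensitized and at 13.65, 13.70 and 13.78 in naive mice (0.02 ± 0.02, adjusted p = 0.307, limma).

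Cox7c and Cox8a differed more widely, on dim probe sets. The mean signal over all arrays was 8.54 for Cox7c and 6.95 for Cox8a, which puts Cox8a under the filter of 7 used as an alternative, where it was not tested. Cox7c, a small structural subunit, stood at 8.49, 9.08 and 9.35 in sensitized and at 7.86, 8.04 and 8.46 in naive mice at 24 h. The groups did not overlap, and the difference was 0.84 ± 0.16 (1.79-fold, adjusted p = 1e-05, limma). Cox8a, the common form of subunit VIII, stood at 6.73, 7.32 and 7.53 in sensitized and at 6.44, 6.68 and 6.95 in naive mice at 6 h (0.52 ± 0.11, adjusted p = 1.26e-05, limma). Of the 8 sensitized mice 6 lay above every naive one. At 96 h Cox5a stood at 13.09, 13.18 and 13.38 in sensitized and at 12.90, 13.02 and 13.09 in naive mice, with 7 of 8 above (0.21 ± 0.06, adjusted p = 0.00252, limma). At 2 h Cox5a was lower than at 0 h within sensitized mice, with a change of -0.34 ± 0.06 (adjusted p = 1.44e-06, limma). Its difference between the arms was called at 0 h, not at 2 or 6 h, and from 24 to 96 h.

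In the ATP synthase, 10 of 11 subunits were higher at 24 h and none was lower. The F1 head makes ATP, the c ring of the Fo part turns with the proton flow, and the peripheral stalk holds the parts together. Atp5e, the epsilon subunit of the central stalk, stood at 13.17, 13.23 and 13.36 in sensitized and at 12.94, 13.09 and 13.22 in naive mice (0.15 ± 0.05, adjusted p = 0.00365, limma). Atp5d, the delta subunit beside it, stood at 13.28, 13.30 and 13.45 in sensitized and at 13.06, 13.22 and 13.29 in naive mice (0.14 ± 0.04, adjusted p = 0.00679, limma). The groups overlapped for both, and 3 of 6 sensitized values for Atp5e and 5 of 6 for Atp5d exceeded all naive ones. Atp5g2, which encodes a subunit of the c ring, stood at 12.61, 12.67 and 12.88 in sensitized and at 12.33, 12.52 and 12.58 in naive mice, without overlap (0.21 ± 0.04, adjusted p = 3.71e-05, limma). Atp5pb, subunit b of the peripheral stalk, stood at 13.13, 13.17 and 13.28 in sensitized and at 12.86, 13.00 and 13.08 in naive mice, again without overlap (0.20 ± 0.04, adjusted p = 1.95e-05, limma). Atp5mpl, a small proteolipid of the Fo part, stood at 12.43, 12.47 and 12.59 in sensitized and at 12.21, 12.31 and 12.36 in naive mice (0.20 ± 0.04, adjusted p = 4.88e-05, limma). All 6 sensitized mice lay above every naive mouse for Atp5mpl too.

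The catalytic subunits Atp5a1 and Atp5b were higher at 24 h by 0.08 and 0.13. The subunit not called at 24 h, Atp5c1, the gamma rotor, was lower at 96 h. It stood at 9.87, 10.18 and 10.37 in sensitized and at 10.19, 10.31 and 10.63 in naive mice (-0.23 ± 0.07, adjusted p = 0.00432, limma), with 5 of 8 sensitized mice below every naive one. Atp5g2 was higher at 6 of the 8 times, as was Sdhc, which no member exceeded.

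The plots of single genes by mouse show Sdhd and Cox5a apart from 24 to 96 h, Uqcrq and Ndufb6 furthest apart at 24 h, and Ndufaf5 at 6 and 24 h.

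**Figure D3:**
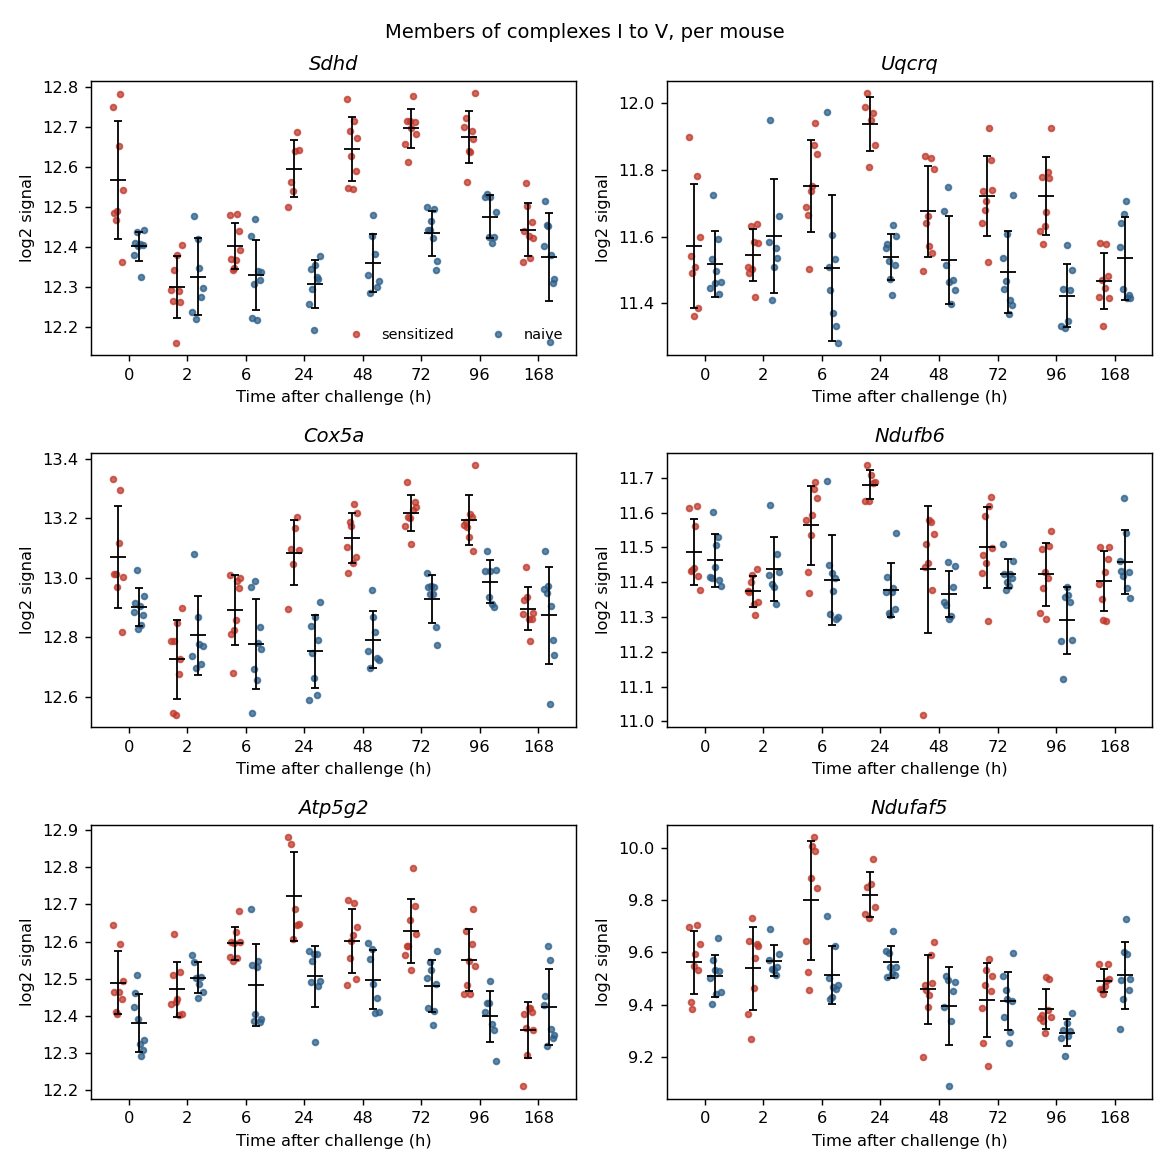
Log2 signal of 6 members in each mouse, by time in hours, with sensitized mice in red left of naive mice in blue. Horizontal lines are group means and bars are SDs (6 to 8 mice a group). At 24 h the lowest sensitized Sdhd value, 12.50, lies above the highest naive one, 12.38.

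Averaged over the 60 members that are not tissue isoforms, the log2 signal at 24 h was 12.076, 12.125 and 12.153 (lowest, median, highest) in sensitized and 11.911, 11.982 and 12.046 in naive mice. All 6 sensitized mice lay above every naive mouse, and the means differed by 0.139. At 96 h the average was 11.966, 12.004 and 12.108 in sensitized and 11.907, 11.924 and 11.999 in naive mice, with 4 of 8 sensitized mice above every naive one. At 2 h and at 168 h the groups overlapped with no sensitized mouse above all naive mice. Averaged over all members, tissue isoforms included, the groups overlapped at 24 h as well. This wider average was 11.827, 11.877 and 11.904 in sensitized and 11.684, 11.784 and 11.854 in naive mice at 24 h. Of the 6 sensitized mice 4 lay above every naive one, and the means differed by 0.097. At 96 h 3 of 8 lay above, with a difference of 0.079.

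**Figure D4:**
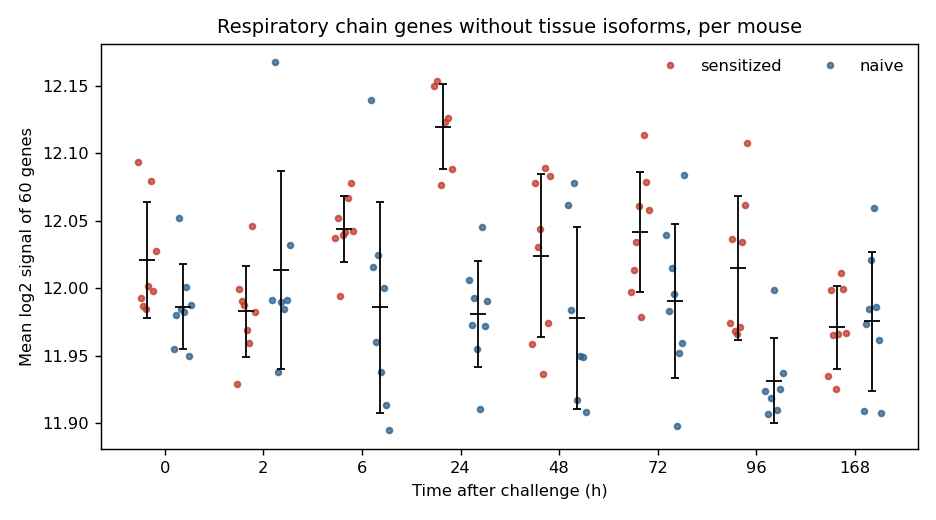
Mean log2 signal of the 60 members other than tissue isoforms in each mouse, by time in hours, with sensitized mice in red left of naive mice in blue. Horizontal lines are group means and bars SDs (6 to 8 mice a group). The 24 h sensitized mice, from 12.076 to 12.153, all lie above the naive mice of that time. With the tissue isoforms included, which is not drawn, the groups of 24 h overlap.

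Within each arm the members changed over time as well. Of 66 members 58 passed the F test over time in sensitized mice (87.9%), against 87.8% of all genes, and 34 passed it in naive mice (51.5%), against 38.4%. The 34 became 53 with array weights. Against 0 h, 30 members (45.5%) were higher and 3 (4.55%) lower in sensitized mice at 24 h, where the shares of all genes were 18% and 21.6%. In naive mice at 24 h, 8 (12.1%) were higher and 7 (10.6%) lower, where the shares of all genes were 9.64% and 10.3%. At 96 h the pattern was another one: 5 (7.58%) were higher and 11 (16.7%) lower in sensitized mice, against 8.73% and 12.3% of all genes. In naive mice at 96 h, 4 (6.06%) were higher and 15 (22.7%) lower, against 7.57% and 9.68% of all genes. The members lower in naive mice then included Ndufa6 at -0.28 ± 0.04 and Cox6c at -0.27 ± 0.04, which were not called between the arms at 96 h. They also included Atp5mpl at -0.21 ± 0.04, which was higher in sensitized than in naive mice at that time. Sdhd and Cox5a, also higher in sensitized mice at 96 h, differed from 0 h by 0.07 and 0.09 in naive mice, neither of which was called. All these comparisons share the 0 h mice of their arm. At 2 h, 14 members (21.2%) were lower and 4 (6.06%) higher than at 0 h in sensitized mice, against 18% and 14.2% of all genes, with Sdhd at -0.27 ± 0.04 and Cox7c at -0.42 ± 0.15.

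The change of the difference since 0 h was tested directly. Over the 7 later times together 37 members passed (56.1%), against 62.5% of all genes, with the lowest p for Cox6b2 (3.31e-08), Sdhd (1.4e-06), Cox5a (1.36e-05), Uqcrq (2.3e-05) and Ndufb6 (0.000123), adjusted, from limma's F test. At 24 h 5 members had a larger difference than at 0 h (7.58%), against 3.39% of all genes, and 0 a smaller one, against 2.11%. They were Uqcrq at 0.34 ± 0.10, Ndufb6 at 0.28 ± 0.07, Ndufb5 and Atp5mpl at 0.18 ± 0.06 each, and Cox7a2 at 0.13 ± 0.04. At 6 h 3 had changed upward (4.55%), against 10% of all genes, and 4 downward (6.06%), against 14.6%. At 2 h 0 had changed upward, against 2.34%, and 4 downward (6.06%), against 4.34%. At 48, 72 and 96 h limma called 0 members, with 5, 1 and 8 at an unadjusted p under 0.05, where it called 0, 1.48% and 1.34% of all genes upward and 0, 1.06% and 1.78% downward. At 168 h 0 had changed upward, against 0.965%, and 1 downward (1.52%), against 0.973%.

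The isoforms tied to particular tissues or conditions went apart from the common subunits. Cox4i2 is the form of subunit IV known from lung and from oxygen sensing, and Ndufa4l2 is a hypoxia-induced paralog of a complex IV subunit. Cox7a1 and Cox8b are the forms of heart, skeletal muscle and brown fat, and Cox6b2 and Cox8c are known from testis. At 24 h 3 of these 6 were lower in sensitized mice, 1 was higher and 2 were not called.

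Cox4i2 stood at 10.28, 10.58 and 11.18 in sensitized and at 10.61, 11.04 and 11.60 in naive mice at 6 h, with 4 of 8 sensitized mice below every naive mouse (-0.44 ± 0.09, 0.738-fold, adjusted p = 4.07e-05, limma). At 24 h it stood at 10.59, 10.76 and 11.06 in sensitized and at 10.87, 11.13 and 11.29 in naive mice, with 5 of 6 below (-0.35 ± 0.10, adjusted p = 0.00267, limma). It was also lower at 48 and 96 h, while Cox4i1 was higher at each of these times and at 24 h. Ndufa4l2 stood at 9.63, 10.01 and 10.42 in sensitized and at 9.96, 10.49 and 10.78 in naive mice at 6 h (-0.41 ± 0.10, adjusted p = 0.000124, limma). At 24 h it stood at 9.95, 10.25 and 10.46 in sensitized and at 10.45, 10.70 and 10.77 in naive mice, with 5 of 6 sensitized mice below every naive one (-0.42 ± 0.10, adjusted p = 0.000454, limma). Ndufa4l2 was lower at 5 times, 0, 6, 24, 48 and 72 h. Markers of pericytes and vascular smooth muscle were mixed at 6 h, with 6 of 11 lower and 2 higher, against 33.2% and 24.6% of all genes. Abcc9 stood at -1.06 ± 0.13 and Higd1b at -0.43 ± 0.09, while the pericyte marker Rgs5 was higher, at 0.52 ± 0.16. At 24 h 4 were lower and 3 higher, against 24.9% and 22.8% of all genes. The pericyte mean then lay between 11.23 and 11.40 in sensitized and between 11.19 and 11.38 in naive mice.

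Cox8b varied widely between mice. At 0 h it stood at 8.61, 9.26 and 9.94 in sensitized and at 9.74, 10.27 and 11.39 in naive mice, with 6 of 8 sensitized mice below every naive one (-1.05 ± 0.32, 0.485-fold, adjusted p = 0.00993, limma). At 24 h it stood at 8.25, 8.84 and 9.16 in sensitized and at 8.97, 9.82 and 10.38 in naive mice, with 4 of 6 below (-0.96 ± 0.34, adjusted p = 0.0154, limma). It was lower at 6 and 72 h as well and differed by -0.02 ± 0.33 at 96 h. Cox7a1 was called at no time, at 8.91, 9.20 and 9.67 in sensitized and 8.57, 9.70 and 10.30 in naive mice at 24 h (-0.34 ± 0.33, adjusted p = 0.41, limma). Over the mean of the 8 differences Cox7a1 (-0.35 ± 0.11, adjusted p = 0.00382, limma) and Cox8b (-0.62 ± 0.11, adjusted p = 1.08e-06, limma) were both lower.

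Cox8b and Cox7a1 went with the markers of heart muscle from mouse to mouse. Over the deviations of all 62 sensitized and 61 naive mice from their group means, Cox8b correlated with the mean of 13 cardiac markers at a Pearson r of 0.84 and a Spearman rho of 0.89. Cox7a1 did so at an r of 0.91 and a rho of 0.94. Each had a permutation p of 1e-05, the smallest that 100000 resamples can give, also when adjusted over the 8 relations computed. Without the 2 mice farthest from the median the r was 0.83 for Cox8b and 0.92 for Cox7a1, and within sensitized mice it was 0.89 and 0.92. With 3 brown adipocyte markers r was 0.71 for Cox8b and 0.72 for Cox7a1 (rho 0.66 and 0.67), and with 10 skeletal muscle markers 0.57 and 0.44 (rho 0.58 and 0.53), each at p = 1e-05. Without the 2 farthest mice the r with the skeletal muscle markers was 0.43 for Cox8b and 0.30 for Cox7a1. Ndufa4l2 correlated with the pericyte markers at r = 0.51 (rho 0.49, p = 1e-05), and Cox4i2 at r = 0.33 (rho 0.33, adjusted p = 0.003 and 0.0008, permutation test). Without the 2 farthest mice these were 0.47 and 0.36. Within sensitized mice r was 0.65 for Ndufa4l2 and 0.48 for Cox4i2, and within naive mice it was 0.30 and 0.11. All values of a mouse come from the same array. The cardiac marker mean at 24 h stood at 9.45, 10.88 and 11.56 in sensitized and at 10.25, 11.81 and 12.38 in naive mice, and 5 of its 13 genes were lower, among them Myl3 at -2.12 ± 0.62. At 0 h, the time of the largest Cox8b difference, the cardiac mean stood at 10.06, 11.10 and 11.81 in sensitized and at 11.35, 11.98 and 12.22 in naive mice, with 1 of 13 called lower. The share of all genes lower was 12.3% at 0 h and 24.9% at 24 h. At 0 h 5 of 6 adipocyte markers were lower too, with a mean between 6.63 and 8.62 in sensitized and between 8.69 and 9.99 in naive mice. Of 10 skeletal muscle markers 3 were lower at 0 h, with a mean between 6.66 and 6.99 in sensitized and between 7.08 and 12.29 in naive mice. Of the 3 brown adipocyte markers 0 were called at 0 h (median -0.26), and at 24 h 1 was higher and 0 lower (median 0.29). For the mean of the 8 differences 2 of these 3 were higher and 0 lower. The part of heart, fat or skeletal muscle in the Cox8b difference was not tested.

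Cox6b2 was the isoform called higher at 24 h, and it differed more at 0 and 96 h. At 0 h it stood at 9.59, 9.92 and 10.02 in sensitized and at 9.35, 9.45 and 9.58 in naive mice, and the groups did not overlap (0.43 ± 0.06, 1.35-fold, adjusted p = 1.22e-07, limma). At 6 h it differed by -0.05 ± 0.06 and was not called. At 96 h it stood at 9.61, 9.83 and 10.25 in sensitized and at 9.20, 9.32 and 9.48 in naive mice, with all 8 sensitized mice above every naive one (0.52 ± 0.07, 1.44-fold, adjusted p = 2.08e-10, limma). The drop of the difference since 0 h was called at 2 h (-0.37 ± 0.09, adjusted p = 0.00741), at 6 h (-0.48 ± 0.09, adjusted p = 2.91e-05) and at 168 h (-0.35 ± 0.09, adjusted p = 0.0236, limma). Markers of ciliated cells were higher in 2 of 10 genes at 0 h, in 0 at 2, 6 and 24 h and in 6 at 48 h. They were higher in 8 at 72 and at 96 h and in 2 at 168 h. Cox6b2 differed by 0.08 at 168 h and was not called. The shares of all genes higher at the 8 times, in order, were 14.2%, 1.84%, 24.6%, 22.8%, 17%, 22.2%, 21.2% and 3.4%. The ciliated mean lay between 9.75 and 10.80 in sensitized and between 9.28 and 10.09 in naive mice at 96 h, and its part in the Cox6b2 difference was not tested. Cox8c stood at 7.44, 7.55 and 7.61 in sensitized and at 7.35, 7.54 and 7.83 in naive mice at 24 h and was called at no time (-0.03 ± 0.08, adjusted p = 0.788, limma).

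**Figure D5:**
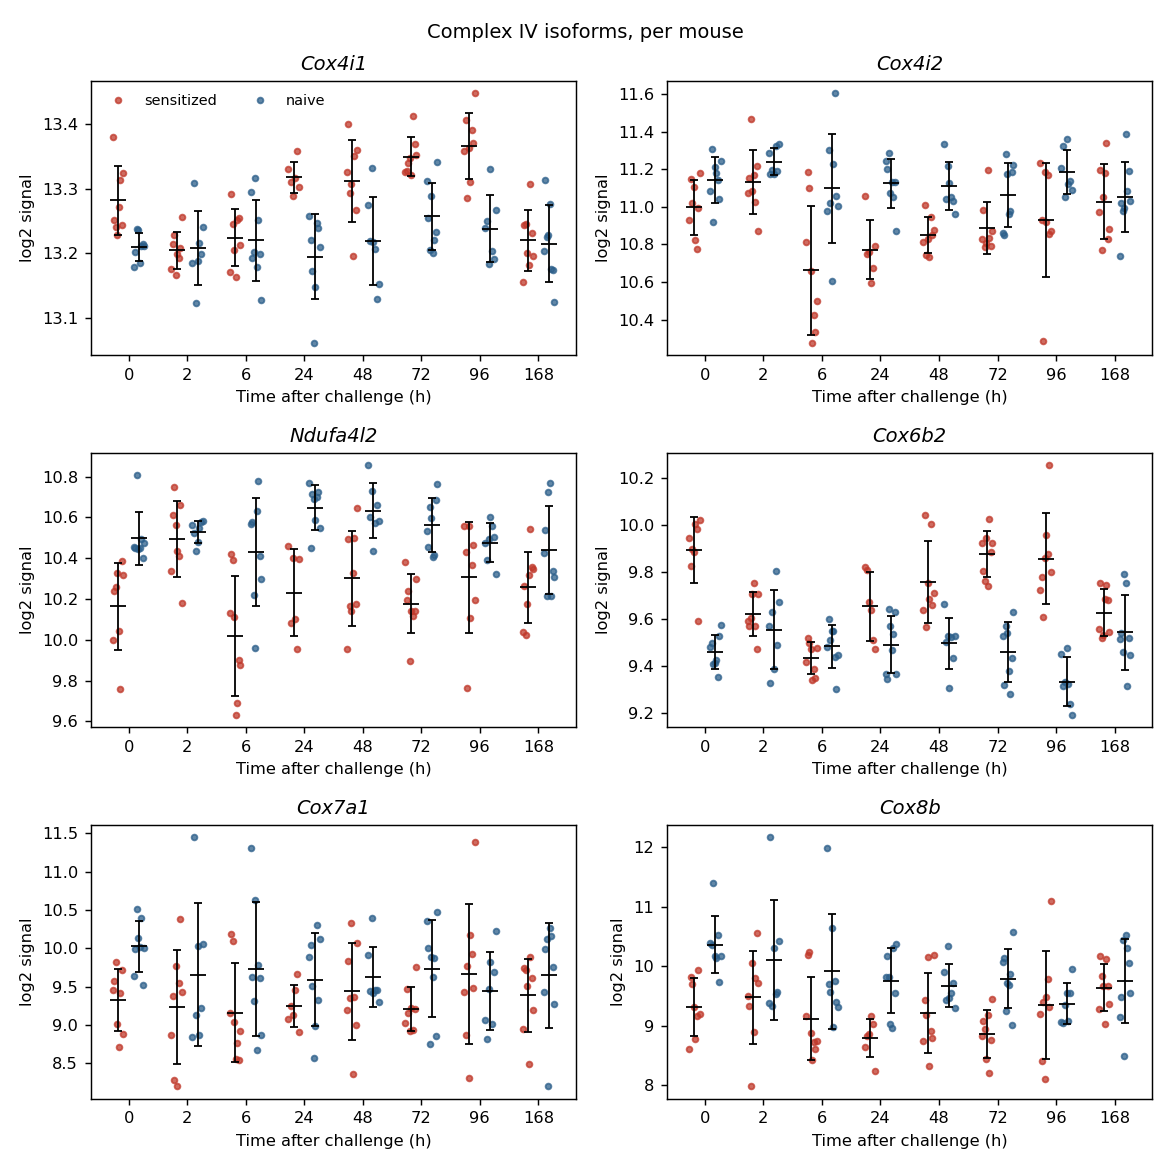
Log2 signal of Cox4i1 and 5 isoforms linked to complex IV in each mouse, by time in hours, with sensitized mice in red left of naive mice in blue. Horizontal lines are group means and bars SDs (6 to 8 mice a group). At 24 h Cox4i1 lies higher and Cox4i2, Ndufa4l2 and Cox8b lie lower in sensitized mice.

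Other mitochondrial genes were counted in the same fit. Of 15 TCA cycle genes 8 were higher and 0 lower at 24 h (median 0.14), among them the pyruvate dehydrogenase subunit Dlat by 0.27 ± 0.07 and malate dehydrogenase Mdh2 by 0.21 ± 0.05. Of 38 proteins of the large mitochondrial ribosome subunit 25 were higher and 1 lower (median 0.16), among them Mrpl1 by 0.38 ± 0.06. Of 9 genes listed for cytochrome c and carriers 5 were higher and 0 lower (median 0.16), with cytochrome c, Cycs, by 0.27 ± 0.06. This list also holds the ATP synthase inhibitor Atpif1 and cytochrome c1, Cyc1, which was higher by 0.27 ± 0.07. Cyc1 is a subunit of complex III that the rule of names left out of the members. Of 34 further assembly factors 13 were higher and 4 lower (median 0.09), and of 7 antioxidant genes 3 were higher and 1 lower (median 0.08). The share of all genes called higher at this time was 22.8% and their median -0.022, as above.

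At 6 h 24.6% of all genes were higher and 33.2% lower, with a median of -0.039. Of 16 regulators of mitochondrial biogenesis 8 were higher and 3 lower at 6 h (median 0.08), and of the 38 mitochondrial ribosome proteins 24 were higher and 1 lower (median 0.18). Of the regulators 5 were higher and 0 lower at 24 h (median 0.05). The coactivators Ppargc1a, Pprc1 and Ppargc1b were higher at 6 h by 0.73 ± 0.14, 0.72 ± 0.11 and 0.57 ± 0.12, and the mitochondrial transcription factor Mterf2 was lower (-0.33 ± 0.09). Glycolysis genes were higher in 6 of 12 and lower in 1 at 6 h (median 0.21), with the hexokinase Hk3 at 1.04 ± 0.13 and the muscle phosphofructokinase Pfkm at -0.64 ± 0.17, and higher in 4 at 24 h (median 0.16). Of 14 hypoxia response genes 2 were higher and 6 lower at 24 h (median -0.20), when 22.8% of all genes were higher and 24.9% lower. Egln3, a prolyl hydroxylase that marks HIF for degradation, was higher by 1.30 ± 0.30, while the peptide Adm and the kinase Pdk1 stood at -0.74 ± 0.20 and -0.49 ± 0.10. At 2 h limma called none of these genes in any of the 8 lists.

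Of the members, 29 had more than 1 probe set. At 24 h all probe sets of a gene had the same sign in 22 of them and differed in sign in 7: Ndufa10, Ndufa3, Ndufa7, Ndufb2, Ndufb8, Ndufs4 and Ndufs7. The lesser probe sets gave 0.33 for Sdhd, 0.41 for Cox5a, 0.25 for Ndufb5, 0.31 for Uqcrq and 0.40 for Atp5g2 at 24 h. For Ndufb8 the probe set used differed by 0.18 and the other by -0.16.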

How the data were processed

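The deposited log2 values hold 1 number for a probe set on an array. RMA made them, per the submitters' processing notes, with no version stated. RMA normalizes arrays to a common distribution and compresses low signals. Names of probe sets come from the platform annotation, and all 66 members were found in the RefSeq gene table by gene ID. Of the 25697 probe sets, 259 carry several symbols and were not named, 6 of them with a symbol of the respiratory chain. Symbols are those of the annotation, some of them older names. For each gene its brightest probe set, by mean, was used.

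All arrays entered 1 limma fit (limma 3.58.1, R 4.3.3, and the package data.table in version 1.17.8) that gives each of the 16 groups its own mean and has 107 residual degrees of freedom. P-values were adjusted by the Benjamini-Hochberg method over the 13053 genes within each contrast, with a threshold of 0.05. Every adjusted p of a single gene comes from limma unless a permutation test is named. Differences are sensitized minus naive on the log2 scale, with the SE of the model, which shares 1 spread per gene over all groups, and differences within an arm are the later time minus 0 h. Lists are described by counts and medians, and no list was tested as a set. Correlations and the actin measure were tested two-sided. Descriptions, permutation tests and figures were made in Python 3.11.15 (scipy 1.17.1, numpy 2.4.6, matplotlib 3.10.9, pandas 2.3.3).

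The members and lists were chosen with earlier results of these data known. Full values are given for the 2 members of each class that differed most at the time with most calls, the isoforms and their partners, the 5 members with the lowest F-test p for the change since 0 h, and the 3 with the smallest range. Other members were picked after their values were seen. For each pathway list up to 4 genes could be named at the time with most calls, beside Cyc1 and Cycs at 24 h. On simulated data for 13053 genes, the 6 h comparison recovered 92% of the genes changed by 0.5 and 96% of those changed by 1, and called 13 unchanged genes. The simulation used independent normal noise and changed far fewer genes than were called at 6 h in the data. Differences near 0.17, the median of members called higher at 24 h, were not simulated, so their recovery is not known. Alternatives were the mean of all probe sets, centring on array medians, a filter at a mean of 7, array weights, trend with robust variance, leaving out arrays with neighbouring tissue, the actin measure as a covariate, fits of only the groups of a time, and leaving out each mouse. Each mouse carries its own animal number, so the replicates are separate animals. Arrays give no counting depth, and their number limits the precision.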

Additional observations from a re-analysis of the deposited data

Results flagged for a closer look

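Values were checked in 104 groups of mice for a mouse far from the others of its group, which chance gives in about 1 of 20 groups, and 9 were found. The mean of the members other than tissue isoforms was 12.17 in naive replicate 2 at 2 h, where the others lay between 11.94 and 12.03, and 12 in naive replicate 4 at 96 h, where the others lay between 11.91 and 11.94. Naive replicate 2 at 2 h is an array with skeletal muscle markers. At 24 h naive replicate 8, an array with neighbouring tissue, had 11.54 for Ndufb6 (others 11.31 to 11.41), and naive replicate 5 had 11.53 for Sdhc (others 11.70 to 11.84) and 12.33 for Atp5g2 (others 12.48 to 12.58). At 6 h naive replicate 2 had 10.52 for Ndufaf7 (others 10.35 to 10.43), and naive replicate 1 had 11.97 for Uqcrq (others 11.28 to 11.61). Sensitized replicate 7 at 0 h had 9.59 for Cox6b2 (others 9.83 to 10.02), and sensitized replicate 8 at 96 h had 13.38 for Cox5a (others 13.09 to 13.22).

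The difference between the arms changed since 0 h for 8 of the values checked at later times, by limma. The values came from a list of 44, which also held values at 0 h that were not checked. Many were listed for a large difference at their time, so a change since 0 h is partly built into the choice. At 24 h it had grown for Ndufb6 (0.28 ± 0.07, adjusted p = 0.0131), Ndufb5 (0.18 ± 0.06, adjusted p = 0.0438), Uqcrq (0.34 ± 0.10, adjusted p = 0.0219), Cox7a2 (0.13 ± 0.04, adjusted p = 0.0278) and Atp5mpl (0.18 ± 0.06, adjusted p = 0.0465). At 6 h it had moved upward for Ndufaf5 (0.23 ± 0.08, adjusted p = 0.0343) and downward for Ndufaf7 (-0.22 ± 0.05, adjusted p = 0.00113) and Sdha (-0.15 ± 0.04, adjusted p = 0.0054).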

How the results depend on the processing

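The count of members higher at 24 h lay between 32 and 35 under the other settings and between 30 and 35 with any 1 mouse left out, and that of members lower was 3 in all of them. With array weights 6 members were lower at 0 h, 1 lower at 2 h, 28 higher at 6 h, 22 higher at 48 h, 1 higher at 168 h, and 53 passed the F test in naive mice. With the actin measure as a covariate 11 were higher at 6 h and 0 lower at 168 h. With only the groups of a time in the fit 9 were higher at 48 h, 1 lower at 96 h and 0 lower at 168 h. With the mean of all probe sets 1 was lower at 2 h, and without arrays with neighbouring tissue 5 were lower at 6 h. Leaving out 1 mouse gave 4 to 9 higher and 2 to 4 lower at 0 h, 13 to 24 and 6 to 10 at 6 h, 11 to 16 and 1 to 2 at 48 h, 12 to 19 and 5 to 7 at 72 h, and 17 to 26 and 2 to 3 at 96 h. The cause of these shifts was not tested. Of 51 single values, 395 of 400 repeats under other settings and 628 of 631 without a mouse kept direction and call. Sdha at 6 h turned to 0.002 with the mean of its probe sets, Cox8c at 24 h, not called, ranged from -0.059 to 0.009 with 1 mouse left out, 0.009 being without naive replicate 2, and the others are Ndufs4 and Ndufa9, given above. No paired analysis was possible because the labels give no replicate numbers that the groups share. Groups of 6 to 8 arrays limit the precision, and whole lung gives no level per cell.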
